A study of Mus musculus with 12 samples.

Results

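The state of CCN6KOT mouse breast tumour cells that carried the DNTCF4 and SET constructs was compared with that of the same line with a control lentivirus, gene by gene. CCN6KOT is a mouse breast cancer line whose tumour the labels call spindle metaplastic, a breast carcinoma of elongated, mesenchyme-like cells. The DNTCF4-SET group held 3 libraries of cells given a lentivirus that the labels call DNTCF4-SET. The PPGS-Vector group held 3 libraries of cells given a control lentivirus. DNTCF4 is described by the submitters as a dominant negative construct against beta-catenin, and the SET construct was one of the rescue proteins added to it. The labels expand neither SET nor PPGS, so the groups are called here as the labels call them. Both groups shared the line, lentiviral transduction, puromycin selection and serum-containing culture medium. In the fit stood 2 further groups of 3 libraries each, DNTCF4-EZH2 and DNTCF4-Vector, which carried DNTCF4 with an EZH2 construct and DNTCF4 with no named second protein. All 4 groups came from 1 line. The labels do not state whether replicate libraries stem from different cultures. The p-values therefore rest on the spread among these libraries alone, and that spread may be technical.

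The genes described are those with at least 10 counts in at least 3 of the 6 libraries compared, a rule that does not look at the groups. A gene near 0 in 1 group can pass it through the other group alone. It kept 14655 of the 55492 genes in the table, and 25859 genes had no count in the 6 libraries. Totals were 28052738, 26738946 and 33023373 counts in DNTCF4-SET, and 26246752, 26863324 and 23597545 in PPGS-Vector. Levels are CPM (counts scaled to a common library total) scaled by the TMM factors, as mean ± SD with n = 3 per group unless libraries are given singly, and a run of values follows libraries 1 to 3. Changes are log2 fold changes of DNTCF4-SET over PPGS-Vector. A gene is said to have risen or fallen where edgeR's quasi-likelihood test gave a Benjamini-Hochberg adjusted p below 0.05 over all 14655 genes, and adjusted p-values below come from that test. Positions are on GRCm38.

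In the Wnt pathway, secreted ligands bind Frizzled and LRP receptors, the destruction complex is held back, and beta-catenin enters the nucleus, where it joins TCF and LEF factors and switches target genes on. TCF4, encoded by Tcf7l2, is one of these factors, and a dominant negative form occupies target sites without recruiting beta-catenin. EZH2 is the methyltransferase of the Polycomb complex PRC2, which places H3K27me3, a histone mark of silenced genes, and its catalytic part is a SET domain. Mutations of Wnt pathway genes are known from metaplastic breast carcinomas, EZH2 is often abundant in aggressive breast cancer, and cells of the spindle type express mesenchymal and matrix genes.

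Ezh2 stood at 554, 509.5 and 574 CPM in DNTCF4-SET and at 57.6, 56.4 and 59.4 CPM in PPGS-Vector. The 2 groups lay far apart, with little spread in either, and the gene (chromosome 6, 47530139 to 47595341) was 9.45-fold higher in DNTCF4-SET (log2 3.24, SE 0.054, adjusted p = 3.41e-16). It averaged 450.3 ± 20.4 CPM in DNTCF4-EZH2 and 65.5 ± 3.13 CPM in DNTCF4-Vector. Tcf7l2 (chromosome 19, 55741820 to 55933654), the gene of TCF4, had 37.9, 32.5 and 35.2 CPM in DNTCF4-SET and 8.61, 13.5 and 10.8 CPM in PPGS-Vector, without overlap (3.2-fold, adjusted p = 3.51e-09). Ctnnb1, which encodes beta-catenin, averaged 1567 ± 14.7 CPM in DNTCF4-SET and 874 ± 9.43 CPM in PPGS-Vector (log2 0.84, adjusted p = 2.01e-11). Set, the gene of the nuclear protein SET, was lower in DNTCF4-SET, at 551 ± 17.2 CPM against 686 ± 18.9 CPM in PPGS-Vector (log2 -0.32, adjusted p = 2.23e-05). Counts per gene do not part a construct's transcripts from the cell's own, and the constructs' sequences are not given in the sources used here. Ccn6, named in the line's name, had no count in the 6 libraries, which allows up to 3 counts in each. Trp53, the gene of p53, had no count in DNTCF4-SET and at most 2 in a PPGS-Vector library. Reads on the Cre recombinase transgene numbered 2, 1 and 4 in DNTCF4-SET and 36, 32 and 15 in PPGS-Vector, and those on the reporters eGFP, eYFP, mCherry and tdTomato numbered 0 in all 6 libraries.

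**Figure D1:**
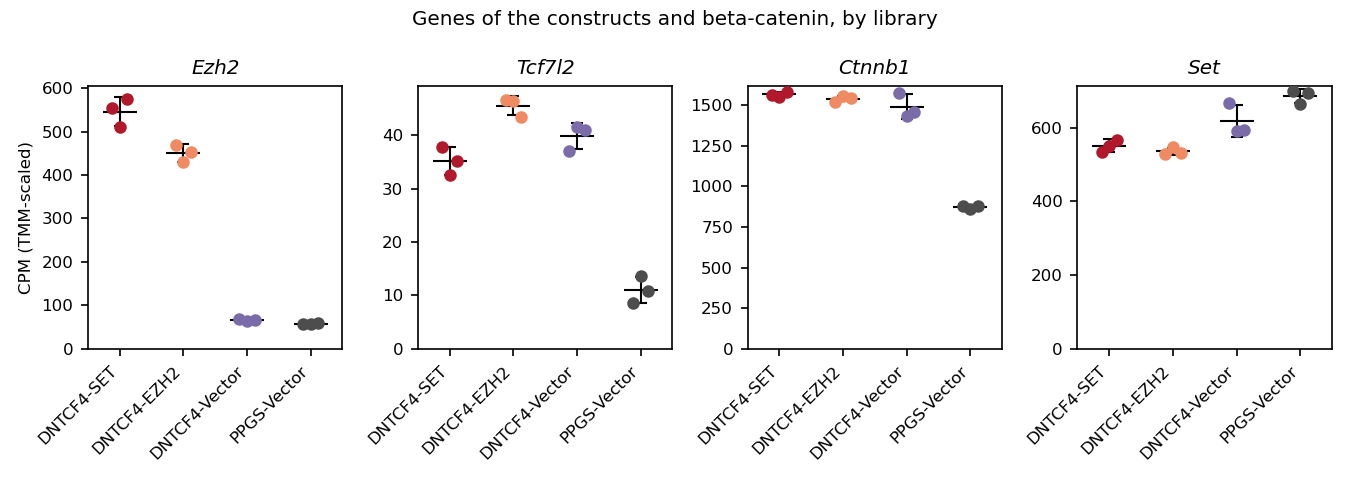
Levels of Ezh2, Tcf7l2, Ctnnb1 and Set in CPM (y axis, linear, from 0) in the 3 libraries of each of the 4 groups (points), with mean (dash) and SD (bar). Ezh2 is high in DNTCF4-SET and DNTCF4-EZH2 and low in DNTCF4-Vector and PPGS-Vector, while Tcf7l2 and Ctnnb1 are lowest in PPGS-Vector and Set is highest there.

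Most genes differed between the groups, and mostly by little. Of the 14655 genes 8661 changed (59.1%), 4217 upwards (28.8%) and 4444 downwards (30.3%) in DNTCF4-SET. The middle change of these was 0.41 in size on the log2 scale. A change of 2-fold or more was found in 1695 genes (11.6%), 959 higher (6.54%) and 736 lower (5.02%) in DNTCF4-SET, and of 4-fold or more in 389 higher and 219 lower. The libraries of the groups did not overlap in 9816 genes (67%), 4796 with DNTCF4-SET above (32.7%) and 5020 with it below (34.3%). The middle change over all 14655 genes was -0.02. In such bulk libraries, fewer cells of a kind and less RNA of a gene per cell cannot be told apart. On the first principal component of all 12 libraries, which carried 64.3% of the variance, the 3 PPGS-Vector libraries stood apart from the other 9. On the second (11.3%), DNTCF4-SET replicate 2 lay at -23.7 and its fellow replicates at -13.8 and -15.1.

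The 15 largest rises and 15 largest falls were read among called genes without overlap and with at least 1 CPM in the higher group, leaving out predicted genes and receptor families. Of the 15 rises 4 were in the cytokine list. Csf3, encoding granulocyte colony-stimulating factor, had 217, 209 and 209 CPM in DNTCF4-SET and 2.29, 2.55 and 2.39 CPM in PPGS-Vector (87.7-fold, log2 6.46, SE 0.06, adjusted p = 8.24e-19). Il1a, the gene of interleukin 1 alpha, had 48, 46.8 and 49.2 CPM in DNTCF4-SET and 0.451, 0.443 and 0.168 CPM in PPGS-Vector (log2 7.04, adjusted p = 2.98e-15). For both the libraries of the groups lay wide apart, though the rule had chosen large changes without overlap. Ccl3, a chemokine gene, had 761 counts in DNTCF4-SET and 2 in PPGS-Vector, a ratio of 332 with a counting interval (95%) of 91.6 to 2748. Il1f6, of the interleukin 1 family, and Vnn3, a vanin gene, had 127 and 132 counts in DNTCF4-SET and none in PPGS-Vector, which puts them, from a floor of 3 counts over the group, at least 37.0-fold higher for Il1f6 and at least 38.4-fold higher for Vnn3. Nat8l, which makes N-acetylaspartate, was at least 25.6-fold higher on the same floor. Such intervals and floors cover counting error only. Genes near 0 in 1 group, here and in the next paragraphs, can pass the count filter through the other group alone. Those with 0 to 2 counts over a group did so.

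Dapk1, a death-associated protein kinase gene, averaged 25.9 ± 0.788 CPM in DNTCF4-SET and 0.298 ± 0.0385 CPM in PPGS-Vector (86.2-fold, adjusted p = 4.85e-16). Cd34, a surface sialomucin gene known from blood progenitors, vessels and some fibroblasts, averaged 34.8 ± 0.212 CPM in DNTCF4-SET and 0.649 ± 0.206 CPM in PPGS-Vector (53.5-fold, adjusted p = 6.51e-15). The developmental transcription cofactor gene Dach1 (log2 5.88), the translation release factor gene Gspt2 (log2 5.99), Mamld1 (log2 5.99) and Igfn1 (log2 6.23) also rose. The rest of the 15 largest rises were Chst15, a sulfotransferase gene with 177 counts in DNTCF4-SET and 1 in PPGS-Vector (ratio 155, interval 27.4 to 6137), Fcho1 with 205 and 2 counts (89.5, 24.5 to 744) and Tmem74 with 150 and 2 counts (65.5, 17.8 to 546).

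The largest falls took in enzyme and matrix genes. Inmt, an amine methyltransferase gene, had no count in DNTCF4-SET and 172 in PPGS-Vector, and was at least 65.7-fold lower. Ogn, encoding the matrix proteoglycan osteoglycin, had 0.644, 0.527 and 0.819 CPM in DNTCF4-SET and 18.5, 20.3 and 18.4 CPM in PPGS-Vector (log2 -4.82, adjusted p = 1.33e-13). The nonagouti gene, whose symbol is a single letter and whose product antagonises melanocortin receptors, averaged 14.5 ± 0.974 CPM in DNTCF4-SET and 187 ± 1.67 CPM in PPGS-Vector (12.9-fold lower, adjusted p = 6.51e-15). That none of these groups overlapped follows from the rule by which the genes were chosen. Cyp2f2, a cytochrome P450 gene (log2 -6.70), Igfbp2, a binding protein of insulin-like growth factors (-4.50), Fbln7, a matrix fibulin (-4.37), the ferritin receptor gene Scara5 (-3.58), Itih2, whose product binds hyaluronan (-3.45), Fam135b (-5.10), the aldo-keto reductase gene Akr1c18 (-4.20) and Cttnbp2 (-4.16) fell too. Cre, Ifit3 and Ifit3b were also among the 15 largest falls.

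**Figure D2:**
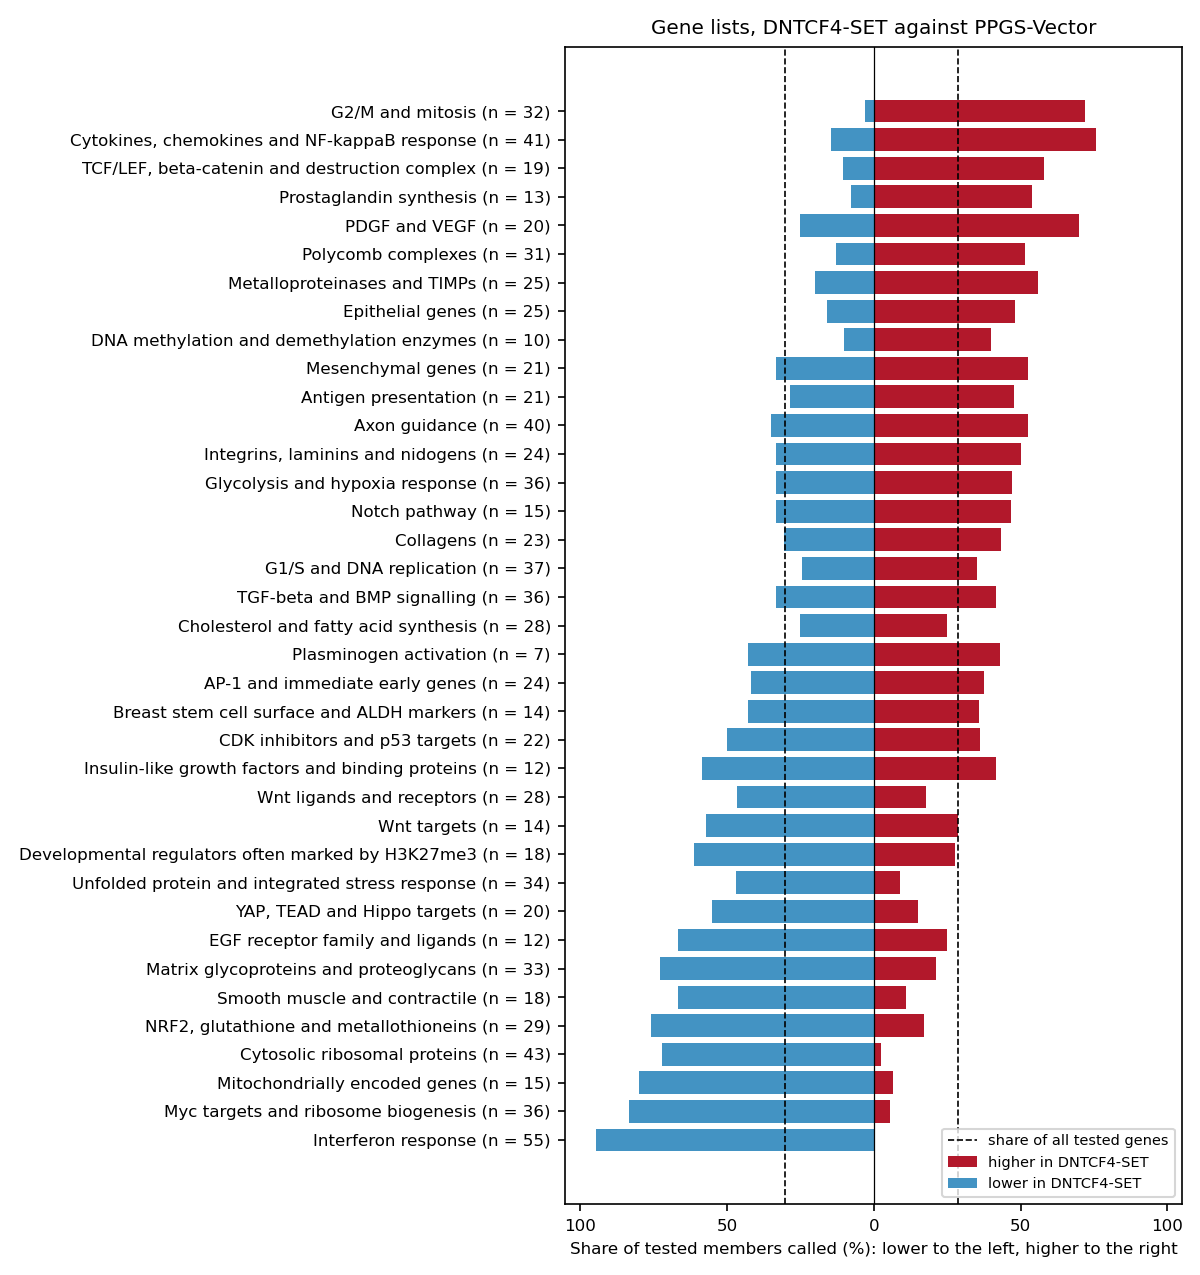
Share of the tested members of each gene list that passed the test (x axis, per cent), lower in DNTCF4-SET to the left in blue and higher to the right in red, with the number tested beside each name. The dashed lines give the shares of all 14655 genes, 28.8% higher and 30.3% lower, and the interferon list has 52 of 55 members lower and 0 higher.

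Interferon response genes were lower in DNTCF4-SET nearly throughout the list. This list and those below were chosen with earlier results of these data known. Their counts beside the shares of all genes therefore describe these libraries and are no test of the lists. Interferons signal through JAK kinases to a complex of STAT proteins and IRF9, which binds the interferon-stimulated response element (ISRE) of target promoters and induces antiviral effectors. Of 55 tested genes of this list 52 fell and 0 rose, with a middle log2 change of -1.29, against 30.3% lower and a middle change of -0.02 over all genes. The summed level of the list was 2163 to 2193 CPM in the DNTCF4-SET libraries and 4472 to 4497 CPM in the PPGS-Vector libraries. The promoters of 4 of the named genes that fell, picked for holding a match to the ISRE consensus, are printed here. Each is given as the 250 bases before the gene's start in RefSeq on GRCm38.p6. They read 5′ to 3′ on the gene's strand, with the match in capitals. The letters searched were GAAA, any 2 bases and GAAA again, which read on the other strand as TTTC, any 2 bases and TTTC.
Ifit3 (chr19:34583279-34583528, plus strand): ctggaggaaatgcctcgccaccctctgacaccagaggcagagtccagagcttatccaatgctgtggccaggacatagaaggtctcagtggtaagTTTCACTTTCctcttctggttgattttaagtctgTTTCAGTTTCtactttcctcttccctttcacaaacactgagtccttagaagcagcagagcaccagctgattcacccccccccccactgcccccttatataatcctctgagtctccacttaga
Ifit1 (chr19:34640639-34640888, plus strand): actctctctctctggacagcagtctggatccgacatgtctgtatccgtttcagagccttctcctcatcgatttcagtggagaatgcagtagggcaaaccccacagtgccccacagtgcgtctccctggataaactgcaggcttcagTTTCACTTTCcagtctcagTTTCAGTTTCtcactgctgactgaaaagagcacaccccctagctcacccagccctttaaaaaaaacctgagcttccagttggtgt
Oas3 (chr5:120777660-120777909, minus strand): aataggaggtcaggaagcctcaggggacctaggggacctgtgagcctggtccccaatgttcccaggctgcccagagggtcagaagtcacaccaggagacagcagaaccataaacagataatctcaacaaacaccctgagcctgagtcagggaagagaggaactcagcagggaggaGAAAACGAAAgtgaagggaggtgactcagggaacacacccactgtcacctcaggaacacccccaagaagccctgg
Gbp3 (chr3:142559794-142560043, plus strand): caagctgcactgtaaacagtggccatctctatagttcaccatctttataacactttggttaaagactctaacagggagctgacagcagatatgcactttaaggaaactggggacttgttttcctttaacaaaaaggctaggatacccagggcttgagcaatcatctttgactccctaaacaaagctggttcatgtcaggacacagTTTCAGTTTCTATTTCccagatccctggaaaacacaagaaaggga

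Ifit3 and Ifit1 each carry a pair of matches, whose first bases lie 156 and 122 bases before the start in Ifit3 and 104 and 85 in Ifit1. In Gbp3 a pair, at 45 and 39 bases, overlaps within 1 run of capitals, and Oas3 has a single match at 75. In windows from 250 bases before to 50 after the start, 21 of the 41 tested interferon genes with a promoter in the RefSeq table held a match (51.2%), against 3.99% of all 27025 promoters. These 41 are part of the 55 tested genes, and the 21 include Gbp7, which did not pass the test. A match describes letters and was not tested for binding.

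Ifit1, whose product binds foreign RNA ends, had 11.1, 11 and 10.9 CPM in DNTCF4-SET and 57.7, 57.2 and 61.6 CPM in PPGS-Vector (5.35-fold lower, log2 -2.42, SE 0.068, adjusted p = 1.43e-13). Ifit3, of the same family, had 4.94, 5.91 and 5.43 CPM in DNTCF4-SET and 52, 49.6 and 55.9 CPM in PPGS-Vector (9.67-fold lower, adjusted p = 1.70e-14). Every DNTCF4-SET library was below every PPGS-Vector library for both. Ifit3b, a near copy of Ifit3 (log2 -3.40), shares reads with it, so the split between them is uncertain. Oas3, encoding an oligoadenylate synthetase that switches on RNase L, averaged 27.3 ± 1.35 CPM in DNTCF4-SET and 95.2 ± 3.65 CPM in PPGS-Vector (log2 -1.80, adjusted p = 4.27e-14). Gbp3, a guanylate-binding protein gene, averaged 55.6 ± 1.12 CPM in DNTCF4-SET and 118 ± 3.53 CPM in PPGS-Vector (log2 -1.08, adjusted p = 5.29e-11). Ifi44 had 37.9, 42.2 and 39.4 CPM in DNTCF4-SET and 148, 146 and 147 CPM in PPGS-Vector (log2 -1.88, adjusted p = 2.29e-13), again without overlap.

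Further members were named after their values were seen, for their place in the pathway. Among the signalling genes, Irf7, which amplifies the response, changed by -1.77 on the log2 scale (adjusted p = 4.49e-12), Irf9 by -0.85 and Stat2 by -0.28 (adjusted p = 7.63e-05). The RNA sensor genes Ddx58, encoding RIG-I, and Ifih1, encoding MDA5, changed by -0.86 and -0.46 (adjusted p = 5.77e-09 and 0.00184). The effector genes Mx1, Mx2, Rsad2 and Isg15 changed by -2.26, -2.32, -2.05 and -1.89. The members that did not pass were Isg20 (-0.17), Gbp7 (-0.03) and Ifi27 (0.09).

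**Figure D3:**
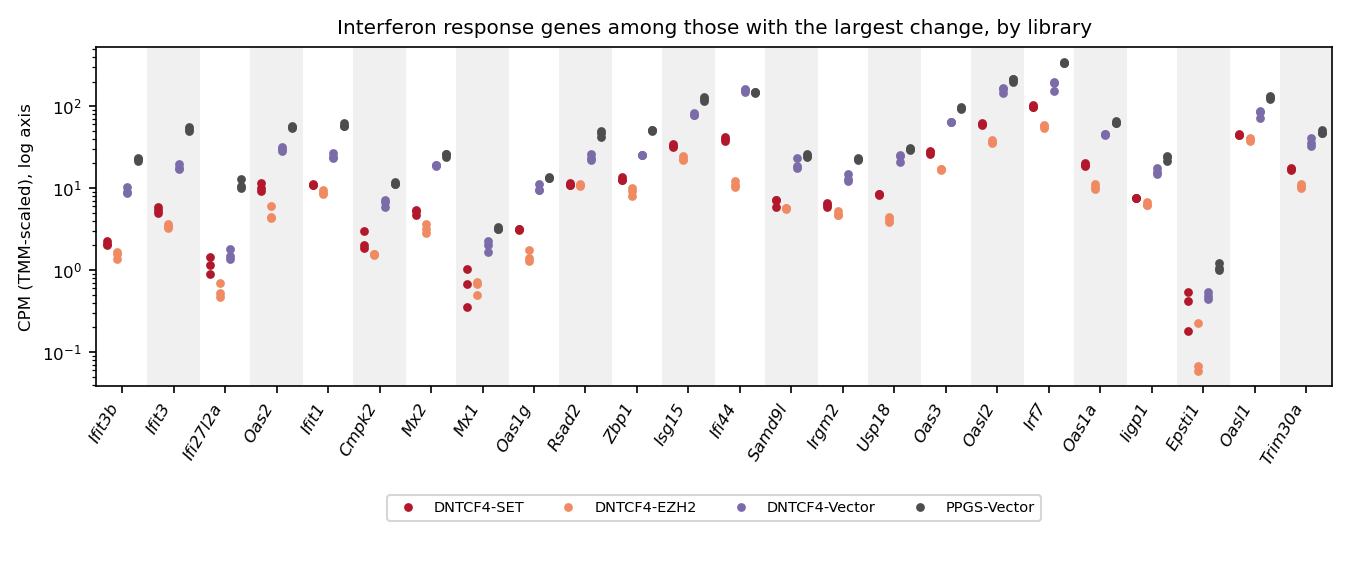
CPM on a log axis of 24 interferon response genes among those with the largest change, a point for each library of the 4 groups, ordered by the size of the change. The DNTCF4-SET points lie below those of PPGS-Vector in each gene, as for Ifit1 with 11 ± 0.0981 CPM in DNTCF4-SET and 58.8 ± 2.4 CPM in PPGS-Vector.

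Genes of antigen presentation, several of which interferon can induce, had 10 of 21 tested members higher and 6 lower (middle change 0.07). All genes had shares of 28.8% higher and 30.3% lower, so the share of falls was close to theirs and that of rises above it. Nlrc5, the activator of MHC class I genes, had 84, 77.4 and 77.9 CPM in DNTCF4-SET and 32.3, 29.6 and 31.9 CPM in PPGS-Vector (2.55-fold, adjusted p = 3.31e-12), a rise without overlap. The class I gene H2-K1 averaged 417 ± 8.86 CPM in DNTCF4-SET and 304 ± 1.45 CPM in PPGS-Vector (log2 0.46, adjusted p = 3.38e-09). H2-Q7 and H2-Q6 rose by 2.59 and 2.36 on the log2 scale, but as near copies they share reads and their separate values are uncertain. Calr, a chaperone of class I molecules, stood at 1648 ± 39 CPM in DNTCF4-SET and 1638 ± 26.7 CPM in PPGS-Vector (adjusted p = 0.833). On the falling side, with genes named after their values were seen, the peptidase gene Erap1 changed by -0.71 and the proteasome activator genes Psme1 and Psme2 by -0.55 and -0.44.

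Cytokine, chemokine and NF-kappaB response genes were mostly higher in DNTCF4-SET. NF-kappaB is a family of transcription factors held in the cytoplasm by IkappaB proteins and released by inflammatory signals, and its targets include neutrophil chemokines and acute phase proteins. Of 41 tested 31 rose and 6 fell, with a middle log2 change of 1.05, against 28.8% higher over all genes. Their summed level was 6940 to 7077 CPM in DNTCF4-SET and 3485 to 3513 CPM in PPGS-Vector. The promoters of the chemokine genes Cxcl2 and Cxcl1, which attract neutrophils, are shown for a match that they share, again as the 250 bases before the start with the match in capitals. The letters searched were GGGA, any base and TTTCC, or GGAAA, any base and TCCC on the other strand, a form of the NF-kappaB site, and Cxcl1 was chosen after its values and its match were seen.
Cxcl2 (chr5:90903649-90903898, plus strand): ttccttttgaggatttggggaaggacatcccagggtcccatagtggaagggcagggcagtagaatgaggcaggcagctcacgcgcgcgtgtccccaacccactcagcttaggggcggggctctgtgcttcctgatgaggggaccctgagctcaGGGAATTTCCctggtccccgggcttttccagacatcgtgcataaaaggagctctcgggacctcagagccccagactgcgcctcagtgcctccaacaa
Cxcl1 (chr5:90890995-90891244, plus strand): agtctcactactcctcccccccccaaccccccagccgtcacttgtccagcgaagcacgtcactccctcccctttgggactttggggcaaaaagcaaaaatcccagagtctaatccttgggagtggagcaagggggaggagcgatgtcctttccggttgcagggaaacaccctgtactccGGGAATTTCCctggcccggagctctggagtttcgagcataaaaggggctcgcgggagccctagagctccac

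The match starts 97 bases before the start in Cxcl2 and 71 in Cxcl1, with the same 10 letters. The site was held by 7 of the 28 tested genes with a RefSeq promoter (25%), against 0.466% of all 27025 promoters. Besides Cxcl1, Cxcl2, Il6, Nfkb2 and Nfkbia, which rose, they were Csf1, which fell, and Cxcl3, which did not pass the test. The Csf3 promoter is not analysed here.

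Among the chemokines, Cxcl2 had 299, 313 and 310.0 CPM in DNTCF4-SET and 9.89, 8.78 and 8 CPM in PPGS-Vector (34.5-fold, log2 5.11, SE 0.061, adjusted p = 8.18e-18). Cxcl1 had 856, 893 and 952 CPM in DNTCF4-SET and 47.7, 43.2 and 47.5 CPM in PPGS-Vector (log2 4.29, adjusted p = 6.67e-15). The DNTCF4-SET libraries stood above the PPGS-Vector libraries by more than 10-fold in both. Lcn2, encoding the siderophore-binding lipocalin 2, had 252, 255 and 247 CPM in DNTCF4-SET and 9.93, 9.12 and 8.63 CPM in PPGS-Vector (27.2-fold, adjusted p = 3.70e-18). Saa3, an acute phase gene, averaged 484 ± 3.63 CPM in DNTCF4-SET and 19.7 ± 1.52 CPM in PPGS-Vector (24.6-fold, adjusted p = 1.19e-16). Ptgs2, the inducible cyclooxygenase gene, averaged 2405 ± 16.5 CPM in DNTCF4-SET and 1467 ± 19.2 CPM in PPGS-Vector (log2 0.71, adjusted p = 2.70e-09).

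Other members were named after their values were seen. The cytokine genes Il6 and Csf2 rose by 2.80 and 3.52 on the log2 scale, Tnf by 2.16 and the monocyte chemokine gene Ccl2 by 1.58. The feedback inhibitors of NF-kappaB rose too, Nfkbia by 1.03 (adjusted p = 1.65e-11) and Tnfaip3, encoding A20, by 1.05 (adjusted p = 8.06e-12), as did the coactivator gene Nfkbiz by 1.49. The subunit genes Nfkb1 and Nfkb2 rose by 0.44 and 0.35, while Relb stood at -0.08 (adjusted p = 0.235). Among the 6 members that fell were Csf1, the macrophage growth factor gene (-1.38, adjusted p = 3.76e-13), Il11 (-1.60) and Cxcl10, a chemokine gene that interferon induces (-1.03). Cxcl3, a close relative of Cxcl1 and Cxcl2, stood at 311, 319.8 and 323 CPM in DNTCF4-SET and 317, 312 and 308 CPM in PPGS-Vector, and the groups overlapped (adjusted p = 0.616).

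**Figure D4:**
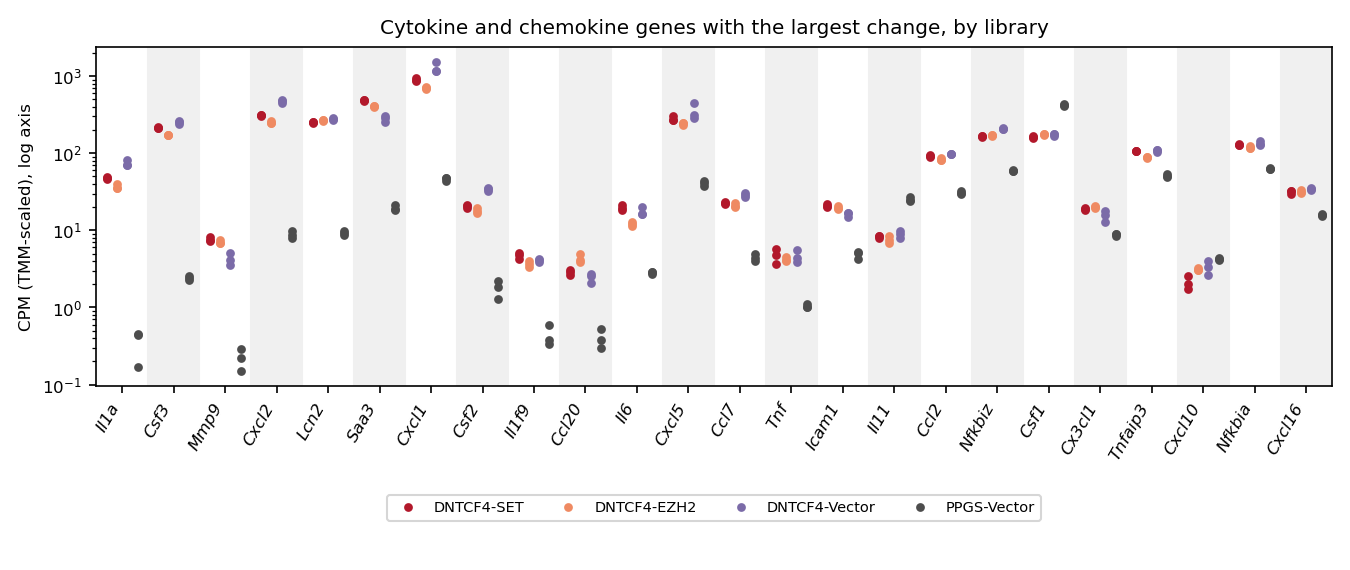
CPM on a log axis of 24 cytokine, chemokine and NF-kappaB response genes with the largest change, a point for each library of the 4 groups, without Il1f6 and Ccl3, which had 0 and 2 counts in PPGS-Vector. Most genes lie higher in DNTCF4-SET than in PPGS-Vector, as Csf3 does with 212 ± 4.35 CPM in DNTCF4-SET and 2.41 ± 0.127 CPM in PPGS-Vector.

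Wnt target genes moved both ways. Of 14 tested members of the list 8 fell and 4 rose (middle change -0.30), against 30.3% and 28.8% of all genes. Another 8 members, among them Lgr5, Lef1 and Rnf43, had too few counts to be tested. Notum, encoding a secreted enzyme that inactivates Wnt ligands, had 4.47, 3.65 and 3.16 CPM in DNTCF4-SET and 16.8, 17.9 and 17.6 CPM in PPGS-Vector (4.65-fold lower, log2 -2.22, SE 0.11, adjusted p = 1.64e-10). Axin2, a feedback inhibitor within the destruction complex, had 0.823, 1.02 and 0.88 CPM in DNTCF4-SET and 2.67, 2.77 and 3.52 CPM in PPGS-Vector (3.28-fold lower, adjusted p = 1.18e-06). Neither gene's groups overlapped. Ccnd1, encoding cyclin D1, averaged 166 ± 3.52 CPM in DNTCF4-SET and 336 ± 10.1 CPM in PPGS-Vector (log2 -1.01, adjusted p = 5.40e-12). The matricellular protein genes Ccn4 and Ccn5 fell by 2.04-fold and 2.32-fold, Znrf3, which removes Frizzled from the surface, by 1.36-fold, Myc by 1.29-fold and the hyaluronan receptor gene Cd44 by 1.17-fold.

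The 4 targets that rose, a share close to that of all genes, were of different kinds. Apcdd1, encoding a membrane inhibitor of Wnt signalling, had 4.44, 4.25 and 3.82 CPM in DNTCF4-SET and 0.226, 0.185 and 0.168 CPM in PPGS-Vector (21.1-fold, adjusted p = 5.17e-11). Bambi, a decoy receptor of the TGF-beta family, had 3.51, 4.59 and 4.07 CPM in DNTCF4-SET and 0.752, 0.701 and 0.796 CPM in PPGS-Vector (5.39-fold, adjusted p = 6.10e-09), and no library of either gene overlapped. Nkd2, an inhibitor at the level of Dishevelled, rose 1.73-fold and the ephrin receptor gene Ephb2 1.54-fold. Tcf7 (log2 0.20, adjusted p = 0.0621) and Sp5 (log2 0.26, adjusted p = 0.363) did not pass the test. The core TCF/LEF letters ATCAAAG, or CTTTGAT on the other strand, stood in the promoter window of 1 of 6 tested targets with a promoter in the table (16.7%, Sp5), against 4.29% of all promoters.

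Among the ligands, receptors and secreted inhibitors of the pathway 13 of 28 tested genes fell and 5 rose (middle change -0.16). The shares of all genes were 30.3% lower and 28.8% higher. The ligand gene Wnt7b had 52.7, 50.3 and 49.4 CPM in DNTCF4-SET and 109.5, 108 and 113 CPM in PPGS-Vector (log2 -1.11, adjusted p = 5.21e-11), and Wnt10a changed by -2.04 (adjusted p = 5.04e-11). The receptor gene Fzd1 averaged 42.9 ± 0.791 CPM in DNTCF4-SET and 94.8 ± 0.64 CPM in PPGS-Vector (log2 -1.14, adjusted p = 1.15e-11). Dkk3, of the Dickkopf family, averaged 12.1 ± 0.603 CPM in DNTCF4-SET and 55.9 ± 1.53 CPM in PPGS-Vector (4.64-fold lower, adjusted p = 9.94e-14). Rspo3, an R-spondin that strengthens Wnt signals, and the receptor gene Fzd3, named after their values were seen, rose by 3.56 and 3.39 on the log2 scale. In the nuclear and destruction complex list 11 of 19 genes rose and 2 fell (middle change 0.29), among the risers Gsk3b, a kinase that marks beta-catenin for destruction (log2 0.51, adjusted p = 1.61e-08), and Pygo1, a nuclear cofactor of beta-catenin (log2 2.51, adjusted p = 8.65e-07).

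Genes of the Polycomb complexes were more often higher than lower in DNTCF4-SET, by small steps. Of 31 tested 16 rose and 4 fell, with a middle change of 0.12, against 28.8% higher and 30.3% lower over all genes. The 16 include Ezh2 and, from outside the complexes, the demethylase genes Kdm6a and Kdm6b. Without DNTCF4-SET replicate 3 the number that fell was 2. The PRC2 core subunit Suz12 averaged 89.8 ± 5.29 CPM in DNTCF4-SET and 69.4 ± 0.134 CPM in PPGS-Vector (log2 0.37, adjusted p = 0.00227), while the core subunit Eed stood at 44.8 ± 0.303 CPM in DNTCF4-SET and 45.2 ± 0.121 CPM in PPGS-Vector (adjusted p = 0.79). Ezh1, the second PRC2 methyltransferase, averaged 75.7 ± 1.51 CPM in DNTCF4-SET and 53.3 ± 2.56 CPM in PPGS-Vector (log2 0.51, adjusted p = 4.59e-07). Of the accessory subunits that guide PRC2 to DNA, Phf19 fell (-0.31), while Mtf2 rose by 0.56 (adjusted p = 2.11e-05) and Jarid2 by 0.51 (adjusted p = 1.26e-06). Epop, an accessory subunit that ties PRC2 to elongin, had 6.98, 6.96 and 6.01 CPM in DNTCF4-SET and 1.96, 2.03 and 2.26 CPM in PPGS-Vector (3.19-fold, adjusted p = 9.74e-09). The demethylases that remove the mark, Kdm6a and Kdm6b, rose by 0.32 and 0.44 on the log2 scale (adjusted p = 4.60e-05 and 0.000302). Of the PRC1 genes Pcgf3 rose by 0.43 and Kdm2b by 0.42, Phc2 fell by 1.12-fold, and the catalytic subunit genes Rnf2 (-0.03, adjusted p = 0.698) and Ring1 (0.08, adjusted p = 0.452) did not pass. Rbbp7 fell too (-0.17).

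Developmental regulators that often carry H3K27me3 were few among the tested genes, as 32 of 50 listed had too few counts. Of the 18 tested 11 fell and 5 rose (middle change -0.39), against 30.3% and 28.8% of all genes. The homeobox gene Irx3 had 20.7, 20 and 18.6 CPM in DNTCF4-SET and 74.8, 73.5 and 73.6 CPM in PPGS-Vector (3.75-fold lower, log2 -1.91, SE 0.072, adjusted p = 4.42e-12). Wt1, the Wilms tumour transcription factor gene, averaged 13.5 ± 0.339 CPM in DNTCF4-SET and 32.1 ± 1.13 CPM in PPGS-Vector (log2 -1.25, adjusted p = 6.73e-11), and the forkhead gene Foxd1 changed by -0.76 (adjusted p = 2.58e-09). Against these, the homeobox gene Msx1 had 2.58, 2.75 and 2.64 CPM in DNTCF4-SET and 0.263, 0.664 and 0.628 CPM in PPGS-Vector (5.11-fold, adjusted p = 7.74e-07). No library of these 4 genes crossed between the groups. The number of rises was 2 to 5 when single libraries were left out.

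Matrix genes fell in the main. Of 33 tested matrix glycoprotein and proteoglycan genes 24 fell and 7 rose (middle change -0.60), against 30.3% lower over all genes. Fn1, encoding fibronectin, had 4653, 4520 and 4227 CPM in DNTCF4-SET and 8362, 9047 and 8714 CPM in PPGS-Vector (log2 -0.96, SE 0.049, adjusted p = 1.48e-10). Sparc, encoding a collagen-binding glycoprotein, averaged 626 ± 11.1 CPM in DNTCF4-SET and 932 ± 52.4 CPM in PPGS-Vector (adjusted p = 2.71e-08). The collagen cross-linking oxidase gene Loxl4 fell 3.43-fold (adjusted p = 1.21e-14) and Ccn2, a matricellular gene, 2.57-fold (adjusted p = 3.33e-12). The risers included Dcn, the small proteoglycan decorin, with 467, 484 and 478 CPM in DNTCF4-SET and 75.3, 78.4 and 74.3 CPM in PPGS-Vector (6.27-fold, adjusted p = 2.88e-16). Tnc, encoding tenascin C, rose 2.76-fold and Ccn1 2.11-fold (adjusted p = 5.22e-13 and 2.70e-10).

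Of 23 tested collagen genes 10 rose and 7 fell, with a middle change of 0.04, against 28.8% higher and 30.3% lower over all genes, so the share that fell was that of the background. The fibrillar collagen I genes fell, Col1a1 standing at 352, 359 and 350.0 CPM in DNTCF4-SET and 916, 1059 and 1029 CPM in PPGS-Vector (2.83-fold lower, adjusted p = 8.34e-12). Col1a2 averaged 221 ± 7.02 CPM in DNTCF4-SET and 828 ± 22.3 CPM in PPGS-Vector (3.74-fold lower, adjusted p = 3.95e-15). Col12a1, which decorates collagen I fibrils, fell 1.76-fold (adjusted p = 1.48e-10). Col5a3, of the collagen V family, rose 2.19-fold (adjusted p = 8.51e-12). Of the basement membrane collagen IV genes, named after their values were seen, Col4a1 and Col4a2 rose by 0.72 and 0.72 on the log2 scale.

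Genes of smooth muscle and contraction fell in 12 of 18 tested cases and rose in 2 (middle change -0.28). The shares of all genes were 30.3% lower and 28.8% higher. Acta2, the smooth muscle actin gene of myofibroblasts and myoepithelium, had 9.7, 9.48 and 8.59 CPM in DNTCF4-SET and 31.1, 32.3 and 27.4 CPM in PPGS-Vector (3.28-fold lower, adjusted p = 1.87e-11). Myl9, a myosin light chain gene, averaged 0.696 ± 0.0453 CPM in DNTCF4-SET and 5.16 ± 0.407 CPM in PPGS-Vector (adjusted p = 2.78e-10). The calponin gene Cnn2 and the tropomyosin gene Tpm1 changed by -1.03 and -0.56 on the log2 scale (adjusted p = 9.01e-11 and 4.47e-10).

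The mesenchymal list had 11 of 21 tested genes higher and 7 lower (middle change 0.17), against 28.8% and 30.3% of all genes. Its share of falls was thus near that of all genes and its share of rises above it. Vim, encoding the intermediate filament vimentin, had 694, 712 and 669 CPM in DNTCF4-SET and 988, 1059 and 1022 CPM in PPGS-Vector (log2 -0.57, adjusted p = 7.42e-09). S100a4, the fibroblast-specific protein gene, averaged 7.32 ± 0.72 CPM in DNTCF4-SET and 32.1 ± 1.98 CPM in PPGS-Vector (4.37-fold lower, adjusted p = 3.52e-12). Prrx1, a mesenchymal homeobox gene, had 109.9, 117 and 121 CPM in DNTCF4-SET and 19.1, 19.9 and 20.4 CPM in PPGS-Vector (5.85-fold, adjusted p = 6.78e-15). Of the transcription factors that drive epithelial-mesenchymal transition, Twist2 rose 5.53-fold (adjusted p = 1.32e-07) and Zeb1 by 0.18 on the log2 scale (adjusted p = 0.0064), Snai2 fell by 1.39-fold (adjusted p = 2.27e-06), and Snai1 did not pass (-0.04, adjusted p = 0.756). Zeb2 rose by 0.17 on the log2 scale (adjusted p = 0.00384), a call that did not hold in every fit with a library left out. The receptor genes Pdgfra and Pdgfrb moved apart, at 0.59 and -0.53.

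Epithelial genes rose in 12 of 25 tested cases and fell in 4 (middle change 0.33), against 28.8% and 30.3% of all genes. Another 9 of the list, among them Krt5 and Krt14, had too few counts. Cdh1, encoding E-cadherin, stood at 1.15, 1.09 and 0.789 CPM in DNTCF4-SET and 0.489, 1.14 and 0.754 CPM in PPGS-Vector, which overlapped (adjusted p = 0.382). The largest rise was that of Spint2, an inhibitor of matriptase and hepsin, with 10.4, 11.2 and 11.9 CPM in DNTCF4-SET and 0.79, 0.775 and 0.712 CPM in PPGS-Vector (14.6-fold, adjusted p = 1.02e-12). Its relative Spint1 rose 4.21-fold, the tight junction gene Cldn4 4-fold, the epithelial transcription factor gene Elf3 3.56-fold and the desmosome gene Dsp by 3.29 on the log2 scale (adjusted p = 2.80e-07, 4.55e-08, 1.17e-07 and 6.08e-05). Epcam, an epithelial adhesion gene, averaged 0.745 ± 0.276 CPM in DNTCF4-SET and 0.215 ± 0.134 CPM in PPGS-Vector (adjusted p = 0.00288). The keratin gene Krt8 stood at 85.9 ± 1.96 CPM in DNTCF4-SET and 87.7 ± 1.75 CPM in PPGS-Vector (adjusted p = 0.579) and Krt19 fell by 1.32-fold. Trp63, the p63 gene of basal epithelium, fell to 0.68, 1.24 and 1.03 CPM in DNTCF4-SET, against 7.94, 8.89 and 8.13 CPM in PPGS-Vector (8.43-fold lower, adjusted p = 9.39e-10).

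Genes that cells use to hold and cut the matrix changed both ways. Of 24 tested integrin, laminin and nidogen genes 12 rose and 8 fell. All genes had shares of 28.8% higher and 30.3% lower, which apply to each list in this paragraph. Itga2, whose product forms a collagen receptor with integrin beta 1, had 27.7, 26.2 and 26.5 CPM in DNTCF4-SET and 1.43, 1.37 and 2.01 CPM in PPGS-Vector (16.8-fold, adjusted p = 1.42e-14). Itgb3 rose 4.2-fold, the laminin genes Lama4 3.24-fold and Lamb3 2.7-fold, and Itga6, a laminin receptor gene, fell 1.42-fold. Of 25 metalloproteinase and TIMP genes 14 rose and 5 fell (middle change 0.21). The collagenase gene Mmp13 had 11207, 11357 and 11802 CPM in DNTCF4-SET and 3382, 3273 and 3303 CPM in PPGS-Vector (3.45-fold, adjusted p = 5.39e-13), and the elastase gene Mmp12 had 221, 219.8 and 228 CPM in DNTCF4-SET and 13.2, 15.1 and 12.6 CPM in PPGS-Vector (16.3-fold, adjusted p = 1.19e-16). Both groups of libraries were tight and far apart. The stromelysin gene Mmp3 rose 2.94-fold, the gelatinase genes Mmp2 1.38-fold and Mmp9 34.5-fold, and Timp3, an inhibitor of these proteases, fell 2.64-fold (adjusted p = 2.58e-14). In plasminogen activation 3 of 7 genes rose and 3 fell, with the protease inhibitor gene Serpine2 4.71-fold higher and the urokinase receptor gene Plaur 1.67-fold lower.

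Mitotic genes were slightly higher in DNTCF4-SET. Of 32 tested G2/M genes 23 rose and 1 fell, with a middle change of 0.30, against 28.8% higher over all genes. Mki67, the proliferation marker gene, had 187, 179 and 176 CPM in DNTCF4-SET and 116, 116 and 121 CPM in PPGS-Vector (log2 0.62, adjusted p = 1.79e-09). Cenpf and Cenpa, genes of the centromere, rose by 0.48 and 0.43 on the log2 scale, and the spindle checkpoint kinase gene Bub1b by 0.41 (adjusted p = 4.61e-07). Of 37 G1/S and replication genes 13 rose and 9 fell (middle change 0.09), against 28.8% and 30.3% of all genes. Cdc45, a part of the replicative helicase, rose by 0.33 and Mcm6, another part, fell by 1.27-fold, as did the cell cycle kinase gene Cdk6 by 1.99-fold (adjusted p = 4.19e-05, 1.61e-05 and 1.90e-12).

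Ribosome genes went down. Of 36 Myc targets and ribosome biogenesis genes 30 fell and 2 rose (middle change -0.39), against 30.3% and 28.8% of all genes. Dkc1, encoding the pseudouridine synthase dyskerin, had 48.2, 46.4 and 46.9 CPM in DNTCF4-SET and 83.1, 84.7 and 85.1 CPM in PPGS-Vector (log2 -0.84, adjusted p = 1.81e-10). The nucleolar genes Nop16, Rrs1 and Mybbp1a changed by -0.67, -0.58 and -0.53. Of 43 cytosolic ribosomal protein genes 31 fell and 1 rose, by small steps (middle change -0.21), such as Rpl19 at -0.32. These genes have many processed pseudogenes, so single values are uncertain. Of 15 genes encoded in mitochondria 12 fell and 1 rose (middle change -0.42), with the complex I genes mt-Nd1, mt-Nd2 and mt-Nd4 at -0.48, -0.71 and -0.39 and the cytochrome b gene mt-Cytb at -0.52. Their summed level was 13855 to 14375 CPM in DNTCF4-SET and 17108 to 17209 CPM in PPGS-Vector.

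Stress and redox genes fell more often than they rose. Of 29 genes of the NRF2, glutathione and metallothionein list 22 fell and 5 rose (middle change -0.39), against 30.3% and 28.8% of all genes. Srxn1, encoding the peroxiredoxin repair enzyme sulfiredoxin, had 106, 102 and 101 CPM in DNTCF4-SET and 181, 183 and 182 CPM in PPGS-Vector (log2 -0.83, adjusted p = 1.21e-11). The glutathione transferase gene Gstm2 fell 3.9-fold (adjusted p = 7.06e-12). Against the trend of the list, the ferritin heavy chain gene Fth1, which stores iron, had 31232, 31129 and 31002 CPM in DNTCF4-SET and 13504, 14199 and 13501 CPM in PPGS-Vector (2.27-fold, adjusted p = 4.70e-14). The metallothionein gene Mt2 rose 2.09-fold (adjusted p = 4.24e-11). In the unfolded protein and integrated stress response 16 of 34 genes fell and 3 rose (middle change -0.09). The amino acid transporter gene Slc7a5 and Chac1, which degrades glutathione, fell by 1.9-fold and 1.43-fold, and the cystine transporter gene Slc7a11 rose 1.91-fold.

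Of 36 glycolysis and hypoxia genes 17 rose and 12 fell (middle change 0.06), against 28.8% and 30.3% of all genes. Ndrg1, a gene that hypoxia induces, averaged 617 ± 15.8 CPM in DNTCF4-SET and 269 ± 6.03 CPM in PPGS-Vector (2.29-fold, adjusted p = 2.07e-12). The oxygen-sensing hydroxylase gene Egln1, the enolase gene Eno2 and the glycolytic regulator gene Pfkfb3 rose by 0.82, 1.02 and 0.86 on the log2 scale. Of 28 genes of cholesterol and fatty acid synthesis 7 rose and 7 fell. This was 50% in all, against 59.1% of all genes, so the list as a whole did not stand out. Insig1, which holds back SREBP processing by retaining its escort SCAP, rose 2.08-fold (adjusted p = 2.44e-10), the desaturase gene Scd2 1.51-fold and the SREBP gene Srebf2 1.26-fold, and Acaca, the first enzyme of fatty acid synthesis, fell 1.41-fold.

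Growth factor genes shifted in composition. Of 12 EGF receptor family and ligand genes 8 fell and 3 rose (middle change -0.73), against 30.3% and 28.8% of all genes. The ligand gene Areg, amphiregulin, averaged 33.7 ± 0.396 CPM in DNTCF4-SET and 73.9 ± 3.19 CPM in PPGS-Vector (2.19-fold lower, adjusted p = 1.07e-11), and Epgn, epigen, averaged 7.93 ± 0.0599 CPM in DNTCF4-SET and 27 ± 0.854 CPM in PPGS-Vector. Another ligand gene, Tgfa, went the other way, at 28.5 ± 0.738 CPM in DNTCF4-SET and 11.8 ± 0.28 CPM in PPGS-Vector (2.42-fold, adjusted p = 1.26e-11). Errfi1, a feedback inhibitor of the EGF receptor, fell 1.83-fold. In the PDGF and VEGF list 14 of 20 rose and 5 fell (middle change 0.68). The VEGF receptor gene Flt1 had 124, 122 and 120.3 CPM in DNTCF4-SET and 31.8, 32.8 and 31.2 CPM in PPGS-Vector (3.82-fold, adjusted p = 3.95e-15). Hgf, the ligand of the receptor MET, rose to 88.6, 85.6 and 88 CPM in DNTCF4-SET, against 23.6, 23.4 and 21.5 CPM in PPGS-Vector (3.82-fold, adjusted p = 3.35e-13). Its receptor gene Met fell to 141, 141 and 146 CPM in DNTCF4-SET, against 492, 483 and 504 CPM in PPGS-Vector (3.46-fold lower, adjusted p = 1.02e-13). The ligand and the receptor lay on opposite sides, with no overlap in either.

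Of 36 TGF-beta and BMP genes 15 rose and 12 fell (middle change -0.06). All genes had shares of 28.8% higher and 30.3% lower, which apply to each list in this paragraph. The activin gene Inhba and the follistatin-like gene Fstl1 rose by 1.10 and 1.05 on the log2 scale, and the ligand gene Bmp4 and its antagonist gene Grem1 changed by -0.93 and -1.16. In the insulin-like growth factor list 5 of 12 rose and 7 fell, with the growth factor gene Igf1 at 0.475 ± 0.111 CPM in DNTCF4-SET and 3.35 ± 0.219 CPM in PPGS-Vector (adjusted p = 6.18e-08) and Igfbp2 at 0.309 ± 0.0115 CPM in DNTCF4-SET and 7.1 ± 0.802 CPM in PPGS-Vector. Of 20 YAP, TEAD and Hippo genes 11 fell and 3 rose, among them the receptor kinase gene Axl (-0.85) and the tumour suppressor gene Nf2 (-0.54). Of 24 immediate early genes 9 rose and 10 fell, with the zinc finger gene Egr1 at -1.76 and Ier3, which restrains apoptosis, at 1.02. Among CDK inhibitors and p53 targets 8 of 22 rose and 11 fell, with Cdkn1a, encoding p21, at 0.90 (adjusted p = 3.78e-08).

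Marker sums were read to check the labelled cell type and to look for others. The epithelial markers, 1 of 6 of which (Krt5) had no count, summed to 325.6 to 338 CPM in the DNTCF4-SET libraries and 317 to 319 CPM in the PPGS-Vector libraries. Nearly all of this was Krt8 and Krt18. The mesenchymal or fibroblast markers, with Twist1 at 0, summed to 1538 to 1578 CPM in DNTCF4-SET and 2267 to 2480 CPM in PPGS-Vector. The leukocyte markers summed to 60.2 to 69.0 CPM in DNTCF4-SET and 54.0 to 58.2 CPM in PPGS-Vector, nearly all of it Cd68, and Ptprc, the gene of the pan-leukocyte marker CD45, had 5 counts in DNTCF4-SET and 31 in PPGS-Vector. Endothelial markers summed to 5.64 to 7.48 CPM in DNTCF4-SET and 3.39 to 4.76 CPM in PPGS-Vector, and adipocyte markers, mainly Fabp4, to 11.4 to 12.9 CPM in DNTCF4-SET and 7.71 to 8.95 CPM in PPGS-Vector. Skeletal muscle markers, with 2 of 5 at 0, summed to 0.564 to 1.04 CPM in DNTCF4-SET and 2.56 to 3.36 CPM in PPGS-Vector, and neuronal markers, mainly Map2, were also lower in sum in DNTCF4-SET than in PPGS-Vector, where they reached 37.6 CPM. Of the mesenchymal markers Vim, Pdgfra and Col1a1 were abundant in both groups and Pdgfrb was less so. Thy1, with 5 counts in DNTCF4-SET and 0 in PPGS-Vector, and Twist1 were near or at 0. The markers thus do not all go with the spindle label. Leukocyte genes other than Cd68 were near 0. A part of other cell types in the changes of the cytokine and matrix genes was not tested.

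The same genes were read in the groups with DNTCF4 alone and with DNTCF4-EZH2, each against the same PPGS-Vector libraries, so the 3 comparisons share 3 libraries and their counts are not independent. DNTCF4-EZH2 against PPGS-Vector gave 8607 genes (58.7%), 4302 higher and 4305 lower (29.4% each). DNTCF4-Vector against PPGS-Vector gave 8586 genes (58.6%), 4420 higher (30.2%) and 4166 lower (28.4%). Interferon genes had a middle change of -1.29 in DNTCF4-SET, -1.83 in DNTCF4-EZH2 (54 lower, 0 higher) and -0.34 in DNTCF4-Vector (34 lower, 8 higher). Cytokine genes had 1.05 in DNTCF4-SET, 1.02 in DNTCF4-EZH2 and 1.13 in DNTCF4-Vector. Mitotic genes had 0.30 in DNTCF4-SET, 0.47 in DNTCF4-EZH2 and -0.06 in DNTCF4-Vector, and Myc targets and ribosome biogenesis genes -0.39, -0.34 and -0.15 in the same order of groups.

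**Figure D5:**
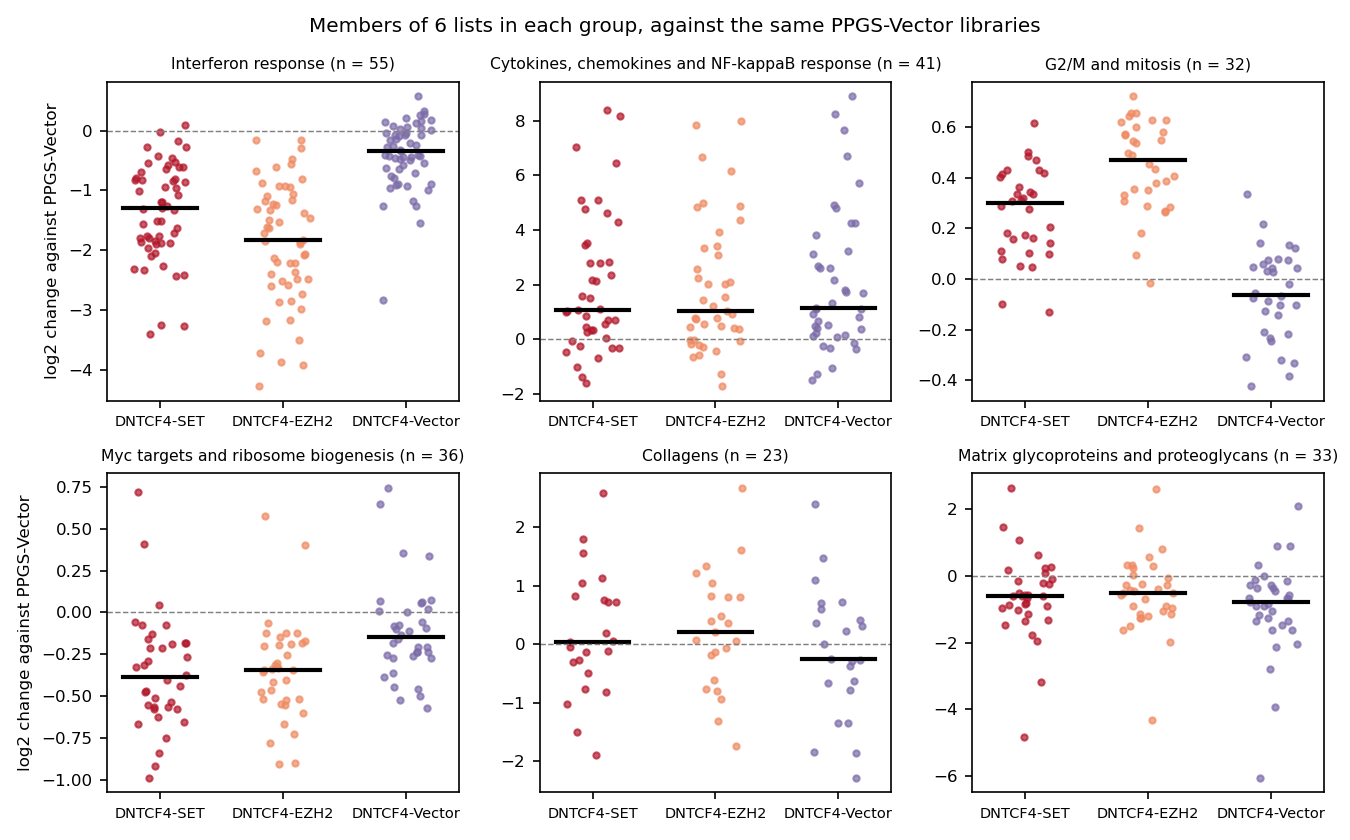
Log2 change against PPGS-Vector (y axis) of each tested member of 6 lists (points) in DNTCF4-SET, DNTCF4-EZH2 and DNTCF4-Vector, with the median of the list as a bar, all 3 groups set against the same PPGS-Vector libraries. The interferon medians lie at -1.29, -1.83 and -0.34 from left to right, and those of the cytokine genes close together.

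DNTCF4-SET set directly against DNTCF4-Vector gave 3941 genes (26.9%), 1890 higher (12.9%) and 2051 lower (14%) in DNTCF4-SET. Of 55 interferon genes 51 were lower and 1 higher in DNTCF4-SET (middle difference -0.86). Ifi44 had 37.9, 42.2 and 39.4 CPM in DNTCF4-SET and 162, 148 and 156 CPM in DNTCF4-Vector (log2 -1.97, adjusted p = 3.51e-12), and Ifit3 4.94, 5.91 and 5.43 CPM in DNTCF4-SET and 19.4, 17.7 and 17.1 CPM in DNTCF4-Vector (log2 -1.74, adjusted p = 1.50e-09). Neither gene overlapped between these groups. Of 32 mitotic genes 27 were higher and 0 lower, with Mki67 at 181 ± 5.31 CPM in DNTCF4-SET and 121 ± 4.32 CPM in DNTCF4-Vector (log2 0.57, adjusted p = 5.06e-08). Of 36 Myc targets and ribosome biogenesis genes 27 were lower and 0 higher, and of 34 stress response genes 16 were lower and 1 higher. Collagen genes were higher in 15 of 23 cases and lower in 2, such as Col12a1 at 69.9 ± 1.56 CPM in DNTCF4-SET and 34 ± 0.99 CPM in DNTCF4-Vector (log2 1.04, adjusted p = 5.52e-10), and other matrix genes in 21 and 3 of 33. Wnt ligands and receptors were higher in 13 of 28 and lower in 1, Wnt targets higher in 4 and lower in 1 of 14, with Notum at 0.56 (adjusted p = 0.00872). Cytokine genes were lower in 15 of 41 and higher in 4, as for Cxcl2 at 307 ± 6.92 CPM in DNTCF4-SET and 469 ± 19.1 CPM in DNTCF4-Vector (adjusted p = 1.41e-07). DNTCF4-Vector replicate 1 stood apart within its group, with chi-square values per degree of freedom of 20.9 and 13.2 against its fellow libraries, against 3.35 between those. Without it 4870 genes differed, 2417 higher and 2453 lower in DNTCF4-SET, the highest of 6 fits that each left out a library, which ran down to 2968. The interferon counts without it were again 51 lower and 1 higher.

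Between DNTCF4-SET and DNTCF4-EZH2, whose Ezh2 levels were both high, 771 genes differed (5.26%), 316 higher (2.16%) and 455 lower (3.1%) in DNTCF4-SET, with a difference of 2-fold or more in 19 (0.13%). The number of genes that differed was 375 to 478 when any single library of the 2 groups was left out and 2171 when only these 6 libraries were fitted. The DNTCF4-EZH2 libraries were uneven. Their chi-square per degree of freedom was 16.6 between replicates 1 and 2, 6.43 between 1 and 3 and 6.155 between 2 and 3. Of 55 interferon genes 41 were higher in DNTCF4-SET and 0 lower (middle difference 0.47), and 34 to 38 were higher when single libraries were left out. Ifi44 had 37.9, 42.2 and 39.4 CPM in DNTCF4-SET and 11.1, 12.3 and 10.2 CPM in DNTCF4-EZH2 (3.56-fold, log2 1.83, SE 0.065, adjusted p = 3.61e-10), a clear gap between all libraries, with PPGS-Vector higher still. Gbp3 averaged 55.6 ± 1.12 CPM in DNTCF4-SET and 25.5 ± 0.669 CPM in DNTCF4-EZH2 (log2 1.12, adjusted p = 9.90e-09). Phf11d, a gene of a family of near copies that is not in the list, averaged 9.8 ± 0.945 CPM in DNTCF4-SET, 4.48 ± 0.256 CPM in DNTCF4-EZH2 and 51.9 ± 1.6 CPM in PPGS-Vector (log2 1.13 between the first 2, adjusted p = 7.21e-06). Chn1, which encodes the Rac regulator chimaerin, averaged 1.39 ± 0.242 CPM in DNTCF4-SET and 0.456 ± 0.0608 CPM in DNTCF4-EZH2 (log2 1.60, adjusted p = 0.00389). Nat8l was higher by 1.11 (adjusted p = 0.033). Ifi44, Gbp3, Phf11d, Chn1 and Nat8l were chosen by the rule used above, which asks for libraries without overlap. The largest falls against DNTCF4-EZH2 were of genes of low level: Adam1a (-1.16), Tcea2 (-1.15), the glutathione transferase gene Gsta2 (-1.02), Rab26 (-0.96) and the noradrenaline transporter gene Slc6a2 (-0.93). These 5 and Nat8l lost their call when some single libraries were left out, whereas Ifi44, Chn1, Phf11d and Gbp3 kept it.

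Ezh2 itself was higher in DNTCF4-SET than in DNTCF4-EZH2, by 0.28 on the log2 scale (adjusted p = 0.00296), and Tcf7l2 lower (-0.37, adjusted p = 0.0324). Of 32 mitotic genes 15 were lower and 0 higher in DNTCF4-SET, by little, with Bub1b at 118 ± 1.59 CPM in DNTCF4-SET and 134 ± 3.06 CPM in DNTCF4-EZH2 (adjusted p = 0.0123). That count was 7 to 9 when single libraries were left out and 25 when only these 6 libraries were fitted. Stress response genes were higher in 10 of 34 cases and cytokine genes in 11 of 41, with 2 cytokine genes lower (6 to 9 higher and 0 to 1 lower with single libraries left out). Among the higher stood Csf3 at 212 ± 4.35 CPM in DNTCF4-SET and 172 ± 1.88 CPM in DNTCF4-EZH2 (log2 0.30, adjusted p = 0.00024). Of 14 Wnt targets 2 were lower and 0 higher, of 31 Polycomb genes 1, Ezh2, was higher, and of 23 collagen genes 5 were lower, 2 to 5 with single libraries left out, and 0 higher.

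Reads on olfactory and vomeronasal receptor genes, which are silent outside sensory tissue, varied between libraries of a group. They summed to 61.2, 90.2 and 70.5 CPM in DNTCF4-SET and 95.2, 290.1 and 145 CPM in PPGS-Vector, over 325, 472 and 421 genes with a count in DNTCF4-SET and 550, 774 and 609 in PPGS-Vector. Replicate 2 was the highest in each group. Of 2003 such genes 41 were tested, of which 25 fell and 4 rose, against 30.3% and 28.8% of all genes. With single libraries left out 18 to 29 fell. Near-silent genes can pass the count filter through the group with more reads alone, so these counts give no result about the genes. Without replicate 2 of both groups the interferon list had 53 lower and 0 higher. The part of such reads in other genes' values was not tested.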

How the data were processed

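RNA-seq was done on 12 libraries of mouse cells. The build GRCm38 and the tools STAR 2.7.8a, RSEM 1.3.3, cutadapt 2.3, DESeq2 and FastQC 0.11.8 are named, per the submitters' processing notes, without their settings. The deposited gene table holds the authors' expected counts per library, and a second deposited table holds the authors' log2 values (rlog). RSEM estimates counts by splitting reads among similar genes, and no source used here states whether counting took strand into account. Values of near copies and overlapping genes are therefore uncertain.

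Expected counts were rounded and fitted with edgeR 4.0.16 in R 4.3.3 over all 12 libraries with TMM scaling and group means (quasi-likelihood test, Benjamini-Hochberg, 8 residual degrees of freedom, biological coefficient of variation 5.14%). The standard error is the size of the log2 change divided by the square root of F. A prior count of 2 entered only the log2 values behind the principal components and the library correlations. Totals of the 12 libraries ran from 23597545 to 33999982, so a floor of 3 counts is 0.0882 to 0.127 CPM. Groups come from the labels. No 2 libraries agreed within sampling noise (chi-square per degree of freedom 2.73 to 4.13 within DNTCF4-SET and 2.44 to 3.73 within PPGS-Vector). Named genes are the largest changes by the rule given with them, the construct genes, up to 4 genes of each list by p and all Wnt target, Polycomb, epithelial and mesenchymal members; further names are marked. Members and lists were chosen with earlier results of these data known. On simulated counts for the comparison with PPGS-Vector (14655 genes), edgeR found 44, 47 and 50 of 50 genes changed 1.5-, 2- and 4-fold. At 1.25-fold it found 24 of 50, and 5.17% of its calls were false. The changed genes were drawn from those above a floor of mean counts, so recovery at low counts was not tested. Far fewer genes were changed there than were called in the data, so this false share does not carry over to the real calls. Of the 8661 real calls 3248 lay under 1.25-fold. Alternatives were DESeq2 1.42.0 (size factors and Wald test), limma 3.58.1 on the log2 values, 3 other filters, a fit of the compared libraries only, a replicate block, a 2-fold threshold and leaving out libraries. Promoters come from RefSeq (GRCm38.p6). Some genes are not reported here.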

Additional observations from a re-analysis of the deposited data

How the results depend on the processing

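Of 4516 values of named genes under the alternatives, 4278 kept their direction and side of the threshold, 225 lost the call, 13 gained it and 0 changed direction. Leaving out a single library gave 7819 to 7989 genes for DNTCF4-SET against PPGS-Vector (3704 to 3881 higher, 4017 to 4253 lower) and changed the call of 23 named genes. Testing for changes beyond 2-fold left 888 genes (585 higher, 303 lower, 65.9% of them higher). It left 916 (534 and 382) for DNTCF4-EZH2 and 935 (491 and 444) for DNTCF4-Vector against PPGS-Vector, and 27 (6 and 21) and 1 (1 and 0) for DNTCF4-SET against DNTCF4-Vector and DNTCF4-EZH2. With only the compared libraries fitted, DNTCF4-SET differed from DNTCF4-EZH2 in 2171 genes (1073 higher, 1098 lower) and from DNTCF4-Vector in 2602 (1273 lower). Without PPGS-Vector 2 and DNTCF4-SET 2, DNTCF4-SET differed from DNTCF4-EZH2 in 328 genes (142 and 186), and with single libraries left out in 375 to 478 (153 to 182 higher, 205 to 296 lower). Without a filter 6297 genes were lower in DNTCF4-Vector than in PPGS-Vector. The cause of these moves was not tested.

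Same-numbered libraries deviated together only weakly (correlations 0.0887, 0.194 and 0.0391). DNTCF4-SET replicate 1 was closest to PPGS-Vector replicate 3 (0.101), while replicates 2 and 3 were closest to their own numbers. Such weak correlations cannot decide whether same-numbered libraries share more than a number. A replicate block gave 8557 genes (4175 and 4382) against PPGS-Vector and 656 (272 and 384) against DNTCF4-EZH2. Depth limits genes under 1 CPM, where 210 of 1632 tested genes rose and 267 fell.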

Other observations

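Prostaglandin genes, which turn arachidonic acid into lipid signals and receive them, were more often higher than lower in DNTCF4-SET (7 of 13 rose and 1 fell, median log2 change 0.24). All genes had shares of 28.8% higher and 30.3% lower, which apply to the Notch list below as well. Ptges, the synthase of prostaglandin E2, had 792, 766 and 779 CPM in DNTCF4-SET and 297, 302 and 294 CPM in PPGS-Vector (2.62-fold, adjusted p = 5.69e-15, edgeR). Ptger3, a prostaglandin E2 receptor gene, had 44.9, 44.9 and 43.9 CPM in DNTCF4-SET and 2.29, 2.33 and 2.39 CPM in PPGS-Vector (19-fold, adjusted p = 9.16e-17, edgeR). All DNTCF4-SET libraries lay above all PPGS-Vector libraries for both genes. The prostacyclin receptor gene Ptgir rose 2.4-fold. Of 15 Notch pathway genes 7 rose and 5 fell, with the receptor gene Notch4 at 10.3 ± 0.423 CPM in DNTCF4-SET and 1.77 ± 0.0333 CPM in PPGS-Vector, the ligand gene Jag1 1.65-fold higher and the target gene Hes1 1.9-fold lower.

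Of 40 tested axon guidance genes 21 rose and 14 fell (median 0.24), against 28.8% and 30.3% of all genes. The semaphorin gene Sema6d had 18.6, 18.1 and 17.2 CPM in DNTCF4-SET and 0.64, 1.48 and 1.09 CPM in PPGS-Vector (16.7-fold, adjusted p = 1.30e-12, edgeR), and Sema4d rose 4.94-fold, while Sema5a fell 2.66-fold. Of 14 markers used for breast stem cells 5 rose and 6 fell, against 28.8% and 30.3% of all genes. The aldehyde dehydrogenase gene Aldh3a1 averaged 21.9 ± 1.63 CPM in DNTCF4-SET and 74.3 ± 1.46 CPM in PPGS-Vector (adjusted p = 3.35e-13, edgeR), Aldh1a1 changed by -3.22 on the log2 scale, and Ly6a, the gene of the surface antigen Sca-1, fell 2.15-fold. Of 10 DNA methylation and demethylation genes 4 rose and 1 fell, against 28.8% and 30.3% of all genes. The fall was that of the dioxygenase gene Tet2 (-0.51).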
